A study of Mus musculus with 5 samples.

Results

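Arginine and polyamine metabolism was followed in mouse CD8+ T cells through 9 named genes: Ass1, Arg2, Odc1, Amd1, Srm, Sms, Smox, Oaz1 and Azin1. They were chosen by name, and 8 of the 9 were rows of the table of 13911 genes covering all time points. Arg2 was not analysed here. The cells were OT-I CD8+ T cells from spleen and lymph nodes of C57BL/6-Tg(TcraTcrb)1100Mjb/J mice, whose transgenic T cell receptor recognises the ovalbumin peptide SIINFEKL. They were sorted by flow cytometry and profiled with 10x Genomics single-cell RNA sequencing before co-culture (0 h) and after 24 h and 72 h of it. Every co-culture held dendritic cells (DCs) loaded with SIINFEKL, with or without myeloid-derived suppressor cells (MDSCs), and no culture lacked the loaded DCs, so stimulation and time in culture cannot be told apart. The 5 groups were 24 h with DCs and MDSCs (2247 cells), 24 h with DCs (1562 cells), 72 h with DCs and MDSCs (4942 cells), 72 h with DCs (1926 cells) and 0 h (2952 cells). The labels give neither the source of the DCs and MDSCs nor the number of mice. Each group was 1 library, so no test was possible, no difference below has a replicate check, and each ratio compares 2 libraries.

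Arginine enters T cells through cationic amino acid carriers. It can also be rebuilt from citrulline by argininosuccinate synthase (Ass1) and argininosuccinate lyase (Asl). Arginase splits arginine into urea and ornithine, and arginase of MDSCs is known for using up the arginine around T cells. Ornithine decarboxylase (Odc1) turns ornithine into putrescine, spermidine synthase (Srm) makes spermidine from it and spermine synthase (Sms) makes spermine. Both synthases use decarboxylated S-adenosylmethionine, which Amd1 supplies, and spermine oxidase (Smox) turns spermine back into spermidine. Antizyme (Oaz1) binds the Odc1 protein and sends it to the proteasome, and antizyme inhibitor (Azin1) captures antizyme. Activated T cells are known to switch on polyamine synthesis as they enter growth, and MYC is known as an activator of Odc1.

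Expression levels are adjusted CPM (CPM for short): the depth-adjusted counts of a gene, summed over a library's cells, per 1000000 of the library's sum. The adjusted counts are not molecule counts, so the depth is unknown, and levels are compared between libraries and not between genes. A median cell had 2210 genes above 0 at 0 h, and 3111 to 3621 in the 4 cultured libraries. All 6 T cell markers in the table were above 0 in each library, their summed level lying between 1806 and 6178 CPM. Of 9 markers of myeloid cells in the table, all 9 were above 0 at 24 h with DCs and MDSCs and 3 at 24 h with DCs, where S100a8, S100a9 and Lyz2 were at 0, at summed levels of 25.5 and 18.9 CPM. At 72 h, 8 and 6 of the 9 were above 0, at 22.6 CPM with DCs and MDSCs and 43.2 CPM with DCs. Ly6c2 alone held 21.01 and 42.3 CPM of these sums, so their order rests on Ly6c2. It also held 109.8 of the 111 CPM summed at 0 h, before co-culture. S100a8, S100a9 and Ngp were at 0.466, 0.493 and 0.173 CPM at 72 h with DCs and MDSCs, and at 0 with DCs. Nos2 and Itgam were lower with MDSCs, at 0 and 0.446 CPM and at 0.0133 and 0.137 CPM. Summed dendritic cell markers were at 30.9 CPM with MDSCs and 27.5 CPM without at 24 h, and at 67.7 and 267 CPM at 72 h, where H2-Ab1 alone held 15.97 and 255 CPM. H2-Eb1 and Cd74 went the other way at 72 h, at 34.7 and 1.27 CPM and at 15.7 and 2.91 CPM. Fscn1 was lower with MDSCs, as H2-Ab1 was, at 0.586 and 6.93 CPM. Each remaining marker stood below 0.586 CPM in both 72 h libraries. Of the barcode sequences, 110 were found in more than 1 library, on 220 cells. The 0 h library stood apart in how its values were spread. Of the Amd1 values above 0, 3.65% equalled 1 at 0 h, against 56.7 to 86.8% in the cultured libraries, and of the Azin1 values 4.68% against 68.2 to 81.4%. Odc1, Srm and Sms were above 0 in 98.3 to 99.5% of the 0 h cells, where 58.5 to 72.6% of their values above 0 equalled 1. Shares of cells are therefore not compared with 0 h, and ratios against 0 h carry an unknown bias.

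The gene positions are those of GENCODE M21 on GRCm38, the assembly of mm10. Ass1 lies on chromosome 2 (31470207 to 31520672, plus strand), Odc1 on chromosome 12 (17544794 to 17551505, plus), Amd1 on chromosome 10 (40287458 to 40302186, minus), Srm on chromosome 4 (148591503 to 148594993, plus) and Sms on chromosome X (157443855 to 157492287, minus). Oaz1 lies on chromosome 10 (80826656 to 80829290, plus), Azin1 on chromosome 15 (38487427 to 38519266, minus) and Smox on chromosome 2 (131491496 to 131525922, plus). The sequences shown are the E-box CACGTG, the motif that MYC with MAX is known to bind, in the windows of the genes that hold it, and the stop codon at which the Oaz1 reading frame shifts. Capitals mark the E-box or the frameshift site.
Ass1, chr2:31470222-31470251, plus strand: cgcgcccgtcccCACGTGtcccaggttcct
Sms, chrX:157492466-157492495, minus strand: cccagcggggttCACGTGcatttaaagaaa
Oaz1, chr10:80828280-80828309, plus strand: cctcggtggtgcTCCTGAtgtccctcaccc

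CACGTG was searched on both strands, which read alike, in RefSeq promoter windows on GRCm38.p6 that run from 250 bases before to 50 bases after a start. It stood 36 bases before the Ass1 start of RefSeq, inside the first exon of the GENCODE model, and 196 bases before the start in 1 of the Sms windows, upstream of the GENCODE gene. It was not in the windows of Odc1, Amd1, Smox or Oaz1, and 7.15% of all 32851 windows held it. TGATGNAA, the form in which ATF4 is known to bind with C/EBP partners, was in 3.97% of the windows and in none of the windows of these 6 genes. Srm and Azin1 were not searched. No sequence outside the windows, such as an intron, was searched for these motifs. Absence from a window therefore does not show that a gene lacks the motif. In Oaz1, polyamines are known to make ribosomes slip past the TGA of TCCTGA, and full-length antizyme is made only after that slip. The data give the amount of Oaz1 transcript and not how often the slip occurs.

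The genes of polyamine synthesis were highest at 24 h and Ass1 was lowest there. Members that reached 10 CPM in 1 of the libraries compared were counted at 1.5-fold, and those that reached 50 CPM also at 2-fold. At 24 h against 0 h with DCs alone, 5 of 7 were 1.5-fold higher and 1 was lower, against a background of 55.0% and 15.4% of all genes at that level. Past 2-fold, 3 of 5 were higher and none lower (background 31.8% and 14.0%). Ass1 was 2.43-fold lower but was left out of that count, as its 0 h level of 49.98 CPM just missed the minimum. At 72 h against 24 h with DCs alone, 1 of 7 was 1.5-fold higher and 5 were lower (background 23.1% and 34.8%), and 1 and 4 of 6 passed 2-fold (16.3% and 23.7%). With DCs and MDSCs the counts were also 1 higher and 5 lower of 7 (background 16.9% and 42.0%), and 1 and 4 of 6 past 2-fold (9.11% and 27.5%). In both comparisons of 72 h with 24 h, Ass1 was higher, Odc1, Srm, Sms, Amd1 and Azin1 were lower, and Oaz1 stayed within 1.5-fold. The 24 h library with DCs stands in 2 of these comparisons, so they are not independent.

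**Figure D1:**
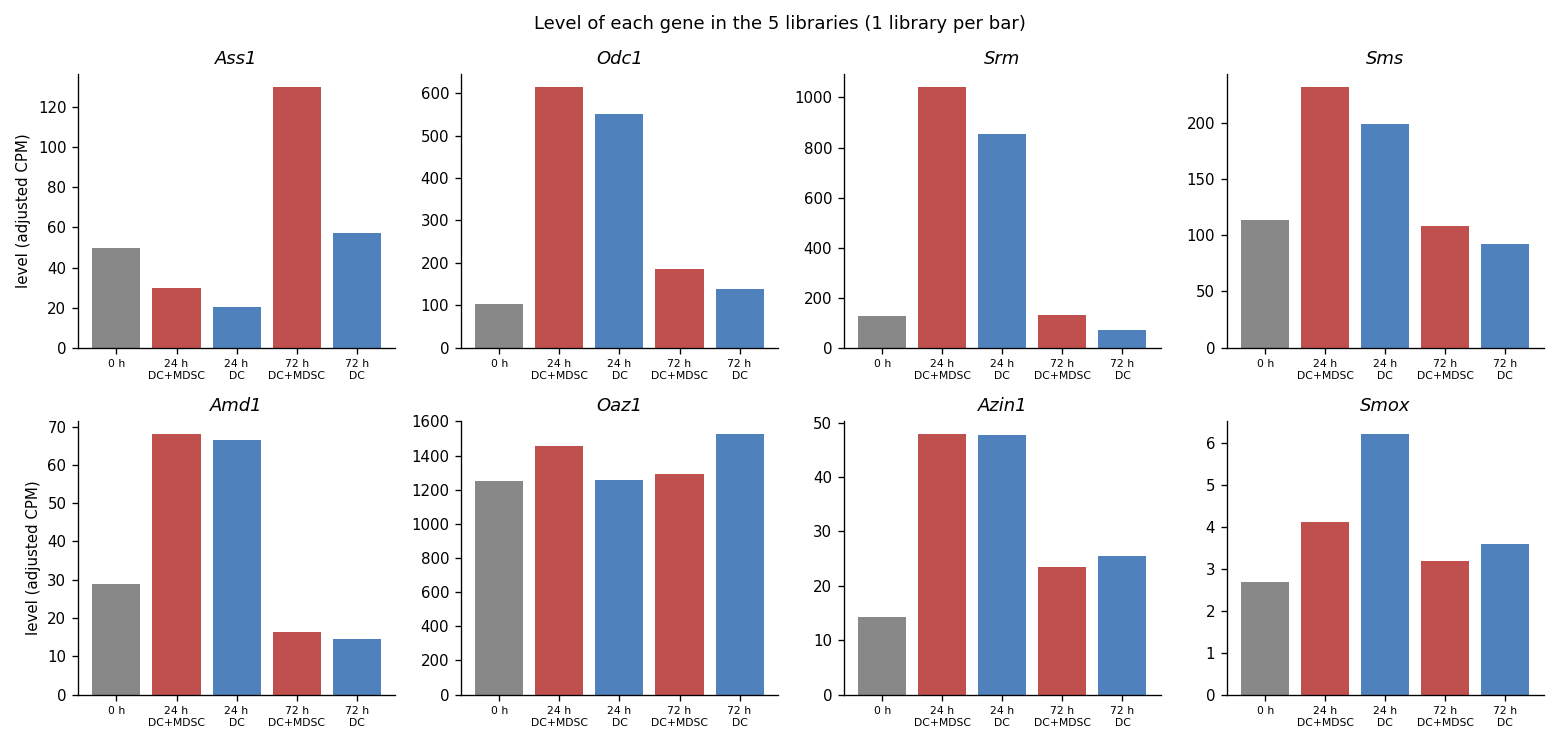
Level in adjusted CPM (vertical axes, each from 0) of the 8 measured genes in the 5 libraries, 1 bar per library; no bar has an error because each group was 1 library. Odc1, Srm, Sms, Amd1 and Azin1 were highest at 24 h, Ass1 was highest at 72 h with DCs and MDSCs, and Oaz1 stayed between 1248 and 1525 CPM.

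Ass1, which rebuilds the arginine precursor argininosuccinate from citrulline and aspartate, was the member that differed most with MDSCs at 72 h. Its level was 49.98 CPM at 0 h, 30.0 CPM at 24 h with DCs and MDSCs, 20.5 CPM at 24 h with DCs, 129.9 CPM at 72 h with DCs and MDSCs and 57.1 CPM at 72 h with DCs. The 72 h library with MDSCs was highest and the 24 h library without them lowest, a 6.33-fold range. At 72 h the level was 2.27-fold higher with MDSCs (log2 ratio 1.18), and 99.6% of the genes at 50 CPM or more in both libraries had a lower ratio. Ass1 was above 0 in 76.5% of the cells with DCs and MDSCs (95% interval 75.3 to 77.7%) and in 49.0% of those with DCs (46.8 to 51.3%). These exact Clopper-Pearson intervals, here and below, cover counting error only. No cell type that should lack these transcripts was profiled, so the share that free RNA would give is unknown. Higher counts were also more frequent, with 3 or more adjusted counts in 31.9% of the cells with MDSCs and 8.93% of those without.

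At 24 h Ass1 was above 0 in 34.4% of the cells with DCs and MDSCs (32.5 to 36.5%) and in 23.5% of those with DCs (21.4 to 25.7%). The ratio of levels was 1.46-fold (log2 ratio 0.55), short of 1.5-fold. The deposited table of 24 h alone gave closer values, 28.6 CPM in 36.8% of cells with MDSCs and 25.6 CPM in 33.8% without, a log2 ratio of 0.16. The 72 h table alone kept a log2 ratio of 1.12 at 72 h. Over time, the level at 72 h was 4.32-fold that at 24 h with DCs and MDSCs, and 2.78-fold with DCs. The 24 h level with DCs was 2.43-fold lower than at 0 h.

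Asl, the next enzyme of the same route, did not share the difference at 72 h. It stood at 28.9 CPM with DCs and MDSCs and 33.5 CPM with DCs. The ratio of Ass1 to Asl within a library does not depend on the library's total. It was 3.14 at 0 h, 1.29 at 24 h with DCs and MDSCs, 0.853 at 24 h with DCs, 4.49 at 72 h with DCs and MDSCs and 1.71 at 72 h with DCs. The libraries with MDSCs thus had the higher ratio at both times. At 24 h Asl stood at 23.4 CPM with DCs and MDSCs and 24.1 CPM with DCs, so that difference rests on Ass1. In the 24 h table alone Ass1 lay closer, at 28.6 and 25.6 CPM.

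Odc1, the enzyme that commits ornithine to polyamines, was highest at 24 h in both cultures. Its level was 103 CPM at 0 h, 614 CPM at 24 h with DCs and MDSCs, 552 CPM at 24 h with DCs, 185 CPM at 72 h with DCs and MDSCs and 138 CPM at 72 h with DCs. The 24 h level with DCs was 5.36-fold that at 0 h, and the 72 h level was 3.98-fold lower than at 24 h with DCs and 3.32-fold lower with DCs and MDSCs. With MDSCs the log2 ratio was 0.15 at 24 h, beside a median of 0.16 over all genes at 50 CPM or more in both libraries, and -0.005 once ratios were centred on that median. At 72 h it was 0.42, short of 1.5-fold. Odc1 was above 0 in 87.0% of the 72 h cells with DCs and MDSCs (86.0 to 87.9%) and in 73.6% of those with DCs (71.6 to 75.6%).

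A few cells held as much Odc1 at 72 h as the highest cells at 24 h. Its highest adjusted count in a cell was 28 with DCs and MDSCs and 33 with DCs at 72 h, close to 28 and 29 at 24 h. The median cell had 2 and 1 adjusted counts at 72 h, against 9 and 8 at 24 h. The variance over the mean across cells was 2.34 with MDSCs and 2.92 without at 72 h.

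Srm, which makes spermidine from putrescine, had the widest range of the members, 14.6-fold. Its level was 126 CPM at 0 h, 1040.2 CPM at 24 h with DCs and MDSCs, 855 CPM at 24 h with DCs, 129 CPM at 72 h with DCs and MDSCs and 71.3 CPM at 72 h with DCs. The 72 h level with DCs lay below the 0 h level, and the 72 h level with MDSCs was close to it, both subject to the unknown bias of 0 h. The level at 72 h was 8.05-fold lower than at 24 h with DCs and MDSCs (log2 ratio -3.01), and lower still with DCs (log2 ratio -3.58). In neither comparison did a gene at 50 CPM or more in both libraries have a lower ratio. With MDSCs Srm was 1.22-fold higher at 24 h and 1.81-fold higher at 72 h (log2 ratios 0.28 and 0.86), and at 72 h 98.4% of the genes at 50 CPM or more in both libraries had a lower ratio. At 72 h it was above 0 in 77.9% of the cells with DCs and MDSCs (76.7 to 79.1%) and in 54.6% of those with DCs (52.4 to 56.9%).

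Amd1 supplies the aminopropyl donor for both synthases. It stood at 28.9 CPM at 0 h, 68.0 CPM at 24 h with DCs and MDSCs, 66.5 CPM at 24 h with DCs, 16.4 CPM at 72 h with DCs and MDSCs and 14.5 CPM at 72 h with DCs. It was thus below its 0 h level at 72 h in both cultures, but comparisons with 0 h carry an unknown bias. The libraries with and without MDSCs lay close together, at log2 ratios of 0.03 at 24 h and 0.18 at 72 h, and the sign at 24 h turned to -0.08 with a total free of ribosomal protein and mitochondrial genes. Amd1 was above 0 in 65.3% of the cells with MDSCs and 66.7% of those without at 24 h, and in 21.7% and 18.8% at 72 h. Amd2 on the same chromosome is a near-identical copy of Amd1, listed at no more than 0.946 CPM in any library, and the sources used here do not say how reads of the pair were split.

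Sms, which makes spermine, moved least of the synthesis genes. Its level was 114 CPM at 0 h, 231 CPM at 24 h with DCs and MDSCs, 199 CPM at 24 h with DCs, 108 CPM at 72 h with DCs and MDSCs and 91.8 CPM at 72 h with DCs. The 24 h level was 1.75-fold that of 0 h with DCs, and the 72 h levels were 2.17-fold lower than at 24 h with DCs and 2.14-fold lower with DCs and MDSCs. The log2 ratios with MDSCs were 0.22 at 24 h and 0.24 at 72 h, both short of 1.5-fold.

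Oaz1, the antizyme that marks the Odc1 protein for breakdown, was above 0 in every cell of the 5 libraries. Its level was 1248 CPM at 0 h, 1455 CPM at 24 h with DCs and MDSCs, 1259 CPM at 24 h with DCs, 1292 CPM at 72 h with DCs and MDSCs and 1525 CPM at 72 h with DCs. These values span 1.22-fold, and the order of the libraries with and without MDSCs was opposite at the 2 times (log2 ratio 0.21 at 24 h and -0.24 at 72 h). The ratio of Odc1 to Oaz1 within a library was 0.0825 at 0 h, 0.422 at 24 h with DCs and MDSCs, 0.438 at 24 h with DCs, 0.143 at 72 h with DCs and MDSCs and 0.0908 at 72 h with DCs. It was near its 0 h value at 72 h with DCs and above it with DCs and MDSCs, both subject to the unknown bias of 0 h.

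Azin1, which captures antizyme and so protects the Odc1 protein, stood at 14.2 CPM at 0 h, 47.9 CPM at 24 h with DCs and MDSCs, 47.7 CPM at 24 h with DCs, 23.5 CPM at 72 h with DCs and MDSCs and 25.5 CPM at 72 h with DCs. The libraries with and without MDSCs lay within 1.09-fold of each other at both times, at log2 ratios of 0.0054 at 24 h and -0.12 at 72 h. The sign at 24 h turned under 3 other ways of scaling and in the 24 h table alone. Azin1 was above 0 in 51.9% of the cells with MDSCs and 54.0% of those without at 24 h, and in 29.3% and 30.3% at 72 h.

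Smox, which oxidises spermine, stayed below 10 CPM in every library and took part in no count. It stood at 2.69 CPM at 0 h, 4.12 CPM at 24 h with DCs and MDSCs, 6.21 CPM at 24 h with DCs, 3.18 CPM at 72 h with DCs and MDSCs and 3.60 CPM at 72 h with DCs. It was above 0 in 135 of 2247 cells with MDSCs (6.01%, 5.06 to 7.07%) and 131 of 1562 cells without (8.39%, 7.06 to 9.87%) at 24 h, and in 4.61% and 5.04% at 72 h. The log2 ratios were -0.59 at 24 h and -0.18 at 72 h. The intervals of the shares met at 24 h, but they cover counting error only and give no test of the difference.

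The MDSC comparisons asked how the same genes stood when MDSCs shared the culture. At 24 h none of the 7 members at 10 CPM or more was 1.5-fold higher or lower with MDSCs, against 2.14% and 1.14% of all genes at that level, and none of the 5 at 50 CPM or more was past 2-fold (0.515% and 0.147%). At 72 h 2 of 7 were 1.5-fold higher with MDSCs, Ass1 and Srm, and none was lower (background 8.30% and 14.8%). Ass1 was also past 2-fold, 1 of 5 members tested at 50 CPM or more (background 2.06% higher and 5.69% lower). The median log2 ratio of the 7 members was 0.21 at 24 h and 0.24 at 72 h, beside 0.09 and -0.07 over all genes at 10 CPM or more. The log2 ratio with MDSCs at 72 h minus that at 24 h was 0.64 for Ass1, 0.58 for Srm, 0.26 for Odc1, 0.15 for Amd1 and 0.02 for Sms, and it was -0.12 for Azin1 and -0.45 for Oaz1. These differences were not tested.

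**Figure D2:**
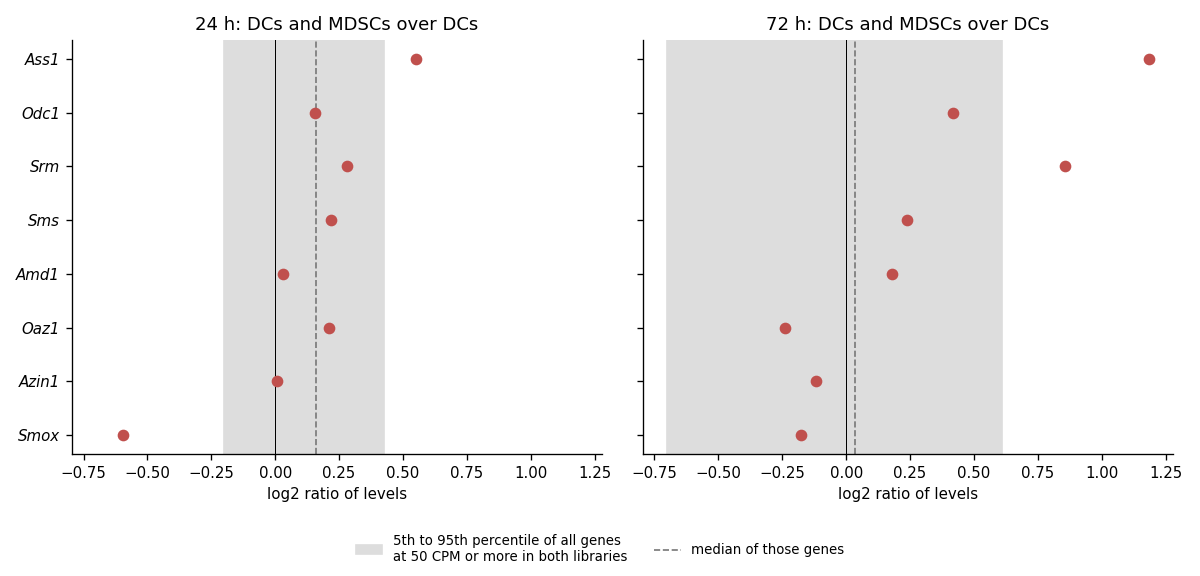
Log2 ratio of levels with DCs and MDSCs over DCs (horizontal axis) for each gene at 24 h (left) and 72 h (right), beside the 5th to 95th percentile and median of all genes at 50 CPM or more in both libraries. Ass1 at 0.55 and Smox at -0.59 lie outside that range at 24 h, but both were below 50 CPM there, and Ass1 was at 0.16 in the 24 h table alone. Ass1 at 1.18 and Srm at 0.86 lie above the range at 72 h.

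Libraries of 1 time also differed in markers of other cell types. Leaving out cells with 2 or more markers of other cell types (667 with MDSCs and 296 without at 72 h) gave log2 ratios of 1.13 for Ass1 and 0.79 for Srm at 72 h. Leaving out cells that held S100a8, S100a9 or Lyz2, which was chosen after seeing the data, gave 1.18 and 0.85. This took away only 78 cells with MDSCs and 1 without at 72 h, so the ratios could hardly move. Both genes stayed past 1.5-fold in the 2 settings. Neither setting removes free RNA, and its part was not tested. The depth of the libraries is unknown and its part in the result was not tested.

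**Figure D3:**
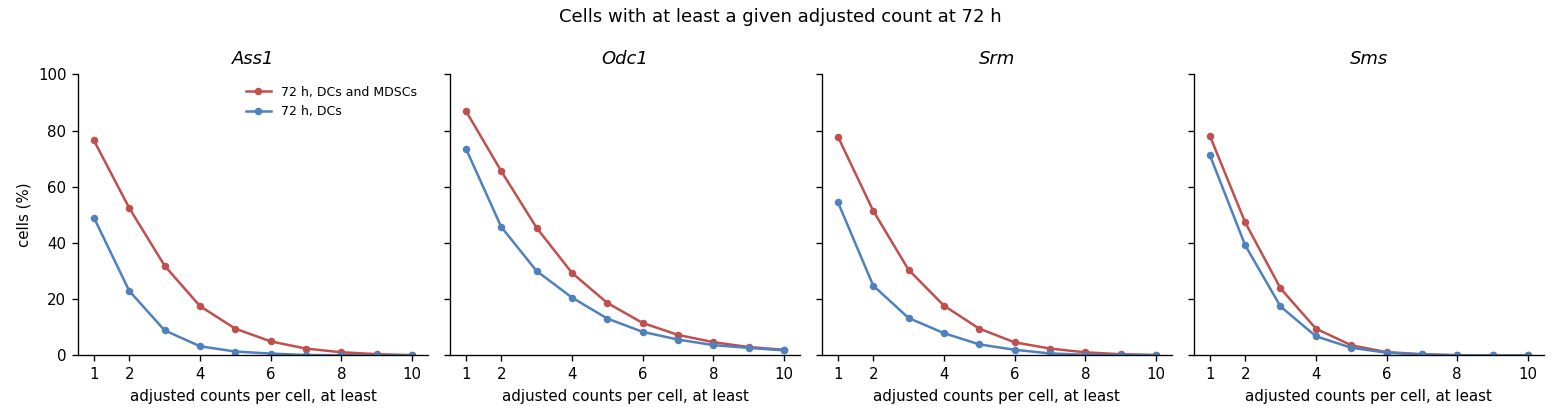
Share of cells (vertical axis, percent) with at least the given number of adjusted counts (horizontal axis) at 72 h for 4 genes, with DCs and MDSCs and with DCs. At low counts the curve with MDSCs lies above the other for all 4 genes. With at least 1 count, the shares were 76.5% against 49.0% for Ass1 and 77.9% against 54.6% for Srm. With at least 2, they were 51.5% against 24.9% for Srm, 65.6% against 45.7% for Odc1 and 47.4% against 39.3% for Sms.

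The cycling of the cells also differed between libraries. The summed adjusted counts of 86 S, G2 and M phase genes had a median per cell of 126 with DCs and MDSCs and 86 with DCs at 24 h, and 133 and 153 at 72 h. Cells of each time were therefore ranked on this sum and split into 3 sets of nearly equal number. The highest set held 43.8% of the library with MDSCs and 18.2% of the library without at 24 h, and 29.4% and 43.5% at 72 h. The lowest set was the least matched at both times. Its median cycle sum at 72 h was 68 with MDSCs and 54 without. The middle set had 137 and 141 there, and the highest 189 and 196. At 24 h, in the same order, the lowest set had 66 and 57. The middle set had 114 and 108 at 24 h, and the highest 147 and 147. At 72 h Ass1 was higher with MDSCs in each set, at 137 against 66.6 CPM in the lowest set, 115 against 55.2 CPM in the middle set and 139 against 52.6 CPM in the highest. Srm stood at 149 against 61.4 CPM in the lowest set, 145 against 99.7 CPM in the middle set and 87.6 against 58.7 CPM in the highest, past 1.5-fold in the lowest set and short of it in the other two. Odc1 differed most in that lowest set, at 186 against 99.7 CPM (log2 ratio 0.90), and was at 204 against 198 CPM in the middle set and 162 against 123 CPM in the highest.

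At 24 h the levels of Odc1, Srm and Sms differed more between the cycle sets of a library than between libraries within a set. Odc1 with MDSCs stood at 497, 616 and 664 CPM from the lowest to the highest set, and without MDSCs at 483, 579 and 694 CPM. Srm stood at 855, 1043 and 1121 CPM with MDSCs and at 719, 951 and 1069 CPM without. The log2 ratios within sets lay between -0.06 and 0.09 for Odc1 and between 0.07 and 0.25 for Srm. Ass1 ran from 26.4 to 31.6 CPM over the sets with MDSCs and from 18.7 to 21.5 CPM without.

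**Figure D4:**
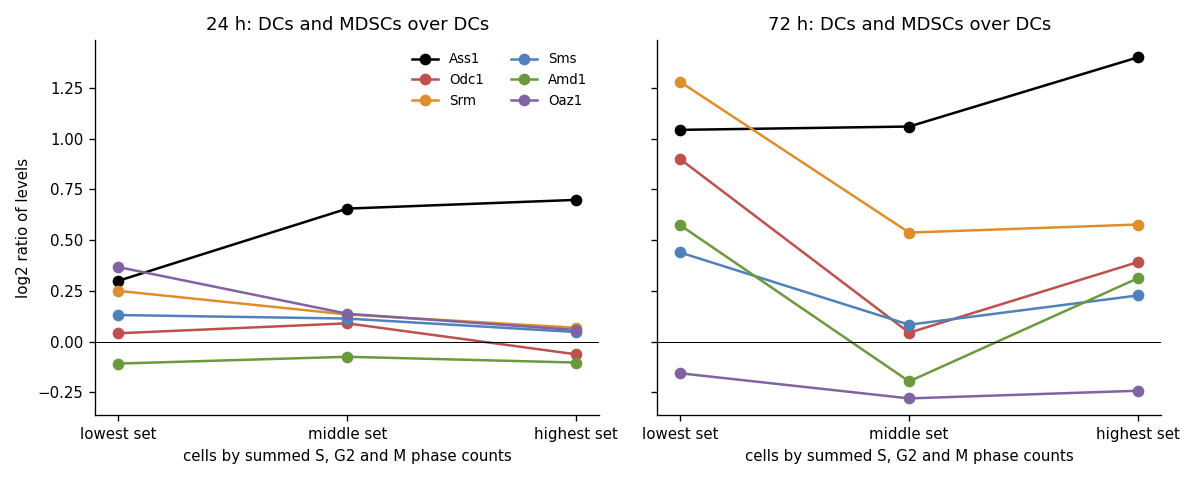
Log2 ratio of levels with DCs and MDSCs over DCs (vertical axis) in 3 sets of cells ordered by their summed counts of cell cycle genes (horizontal axis), at 24 h (left) and 72 h (right), 1 line per gene. At 72 h Ass1 was above 1.04 in each set, and Odc1 ran from 0.90 in the lowest set to 0.04 in the middle one.

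Cells were also counted by how many of the synthesis genes Odc1, Amd1, Srm and Sms they held. At 24 h all 4 were above 0 in 62.5% of the cells with DCs and MDSCs and 62.0% of those with DCs. At 72 h all 4 were above 0 in 13.2% and 8.93%, and none was in 1.38% and 7.11%. An adjusted value of 0 does not show that a cell lacked a transcript. The synthesis genes were also compared between cells with and without Ass1 at 72 h. Within the library with MDSCs, Srm was at 125 CPM in the 3780 cells with Ass1 above 0 and at 144 CPM in the 1162 cells without it, Odc1 at 179 and 206 CPM, Sms at 105 and 118 CPM and Amd1 at 15.9 and 18.2 CPM. Within the library with DCs, Srm was at 66.7 and 75.7 CPM, Odc1 at 136 and 141 CPM, Sms at 89.2 and 94.4 CPM and Amd1 at 14.5 CPM in both, in the cells with and without Ass1.

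Other genes of the pathway, 53 of them in the table, were grouped by role. At 24 h none of the 31 at 10 CPM or more was past 1.5-fold with MDSCs. The background was 2.14% higher and 1.14% lower, so a count of none lies near that share. At 72 h 7 of 32 were higher (21.9%, background 8.30%) and 1 was lower (3.13%, background 14.8%), with a median log2 ratio of 0.21 beside -0.07 for all genes at that level. Pycr1 and Atp13a2 entered the 72 h count only through their level with MDSCs, as both stood below 10 CPM without them. The background was counted by the same minimum. The lists were drawn up with results of these data known.

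S-adenosylmethionine supply and methionine salvage feed Amd1 and clear the by-product of both synthases. Of 9 genes at 10 CPM or more, 2 were higher with MDSCs at 72 h and none lower (background 8.30% and 14.8%). Mtap, which splits that by-product, was at 40.3 CPM with DCs and MDSCs and 19.8 CPM with DCs. Mat2a, which makes S-adenosylmethionine, was at 67.0 and 41.3 CPM. At 24 h Mtap stood at 103 and 100.1 CPM and Mat2a at 290 and 272 CPM, so both were higher at 24 h than at 72 h.

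Of 7 genes listed under arginine methylation at 72 h, 3 were higher and 1 was lower with MDSCs (background 8.30% and 14.8%). The 7 include Padi2 and Ddah2, which are not methyltransferases. Prmt1, the main arginine methyltransferase of mammalian cells, was at 232 CPM with DCs and MDSCs and 117 CPM with DCs, and was above 0 in 94.2% and 77.9% of cells. Prmt7 was at 37.1 and 22.2 CPM and Prmt3 at 27.1 and 17.97 CPM. Ddah2, of the family that breaks down methylarginines to citrulline, was at 14.1 and 24.1 CPM. At 24 h these 3 methyltransferases lay slightly lower with MDSCs, at log2 ratios of -0.04 for Prmt1, -0.09 for Prmt7 and -0.08 for Prmt3.

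Proline synthesis shares ornithine and glutamate semialdehyde with this pathway, and 1 of its 4 genes was higher at 72 h (background 8.30%). Pycr1, a mitochondrial enzyme of the last step, was at 13.3 CPM with MDSCs and 6.41 CPM without. Of 2 polyamine transport genes 1 was higher, Atp13a2, a lysosomal polyamine exporter, at 10.6 and 6.62 CPM (background 8.30%). Pycr1 and Atp13a2 reached 10 CPM only with MDSCs, so both counts depend on the minimum level. Among the 3 genes of eIF5A and its hypusine modification, which is made from spermidine, none was past 1.5-fold at either time. The background was 2.14% higher and 1.14% lower at 24 h, and 8.30% and 14.8% at 72 h. Eif5a stood at 815 CPM at 0 h, 3518 CPM at 24 h with DCs and MDSCs, 3221 CPM at 24 h with DCs, 1410 CPM at 72 h with DCs and MDSCs and 1139 CPM at 72 h with DCs.

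No gene among the other arginine enzymes and carriers was past 1.5-fold, of 6 at 24 h and 4 at 72 h. The background was 2.14% higher and 1.14% lower at 24 h, and 8.30% and 14.8% at 72 h. Slc7a1, the main arginine importer of T cells, was at 61.0 CPM with DCs and MDSCs and 42.3 CPM with DCs at 24 h, and at 15.1 and 15.8 CPM at 72 h. It had stood at 6.02 CPM at 0 h. The other polyamine enzymes and regulators likewise gave none of 3 past 1.5-fold at either time, beside the same background. Azin2, a further antizyme inhibitor singled out after its values were seen, was too low for the counts, at 5.25 CPM in 6.90% of cells with DCs and MDSCs and 0.617 CPM in 0.883% of cells with DCs at 72 h.

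**Figure D5:**
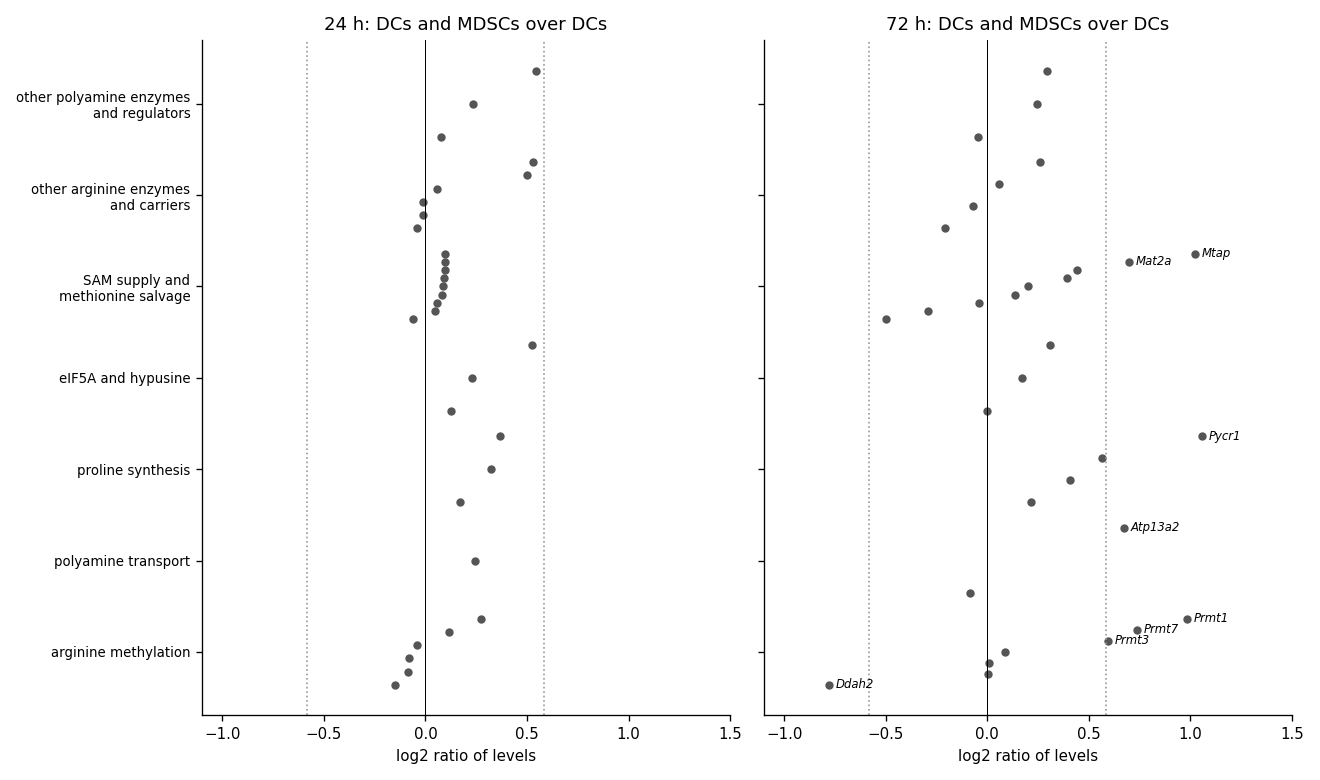
Log2 ratio of levels with DCs and MDSCs over DCs (horizontal axis) of pathway genes that reached 10 CPM in 1 of the 2 libraries, 1 point per gene, by group (rows, points spread by rank), at 24 h (left) and 72 h (right). Dotted lines mark 1.5-fold. No gene crosses them at 24 h (background 2.14% higher and 1.14% lower). At 72 h the 7 higher genes and Ddah2 are named (background 8.30% and 14.8%).

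Of the MYC and MAX network, Myc itself was at 40.0 CPM at 0 h, 151 CPM at 24 h with DCs and MDSCs, 156 CPM at 24 h with DCs, 43.5 CPM at 72 h with DCs and MDSCs and 37.2 CPM at 72 h with DCs. It was thus highest at 24 h, as the synthesis genes were, and lay within 1.5-fold with MDSCs at both times. A rise was common, with 55.0% of all genes at 10 CPM or more 1.5-fold higher at 24 h with DCs than at 0 h. A link between Myc and the synthesis genes was not tested. Of 7 network genes at 10 CPM or more at 72 h, none was higher and 3 were lower with MDSCs (background 8.30% and 14.8%). The 3 belong to the MXD family, whose proteins are known to pair with MAX. Mxi1 was at 17.5 CPM with DCs and MDSCs and 45.3 CPM with DCs, Mxd4 at 17.9 and 36.8 CPM and Mxd3 at 31.6 and 49.9 CPM. At 24 h none of 4 network genes at that level was past 1.5-fold (background 2.14% higher and 1.14% lower).

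Across the 5 libraries, the genes with the profile nearest to a member were taken from 3259 genes at 50 CPM or more in any library, by the root mean square difference of centred log2(CPM + 1) profiles. For Odc1 these were Knop1 (0.06), Pwp1 (0.07) and Ddx56 (0.08). For Srm they were Polr3d (0.14), Ccdc86 (0.17) and Trmt61a (0.23), and for Amd1 Psme3 (0.10), Ddx27 (0.11) and Naa50 (0.11). Sms lay nearest to Mrps18a (0.04), Bcl7c (0.05) and Shmt2 (0.05), and Oaz1 to Anapc5 (0.04), Gng5 (0.05) and Bod1l (0.06). Ass1 had no equally close gene, with Acot13 at 0.20, Sp3os at 0.25 and Commd3 at 0.26. Acot13 stood at 116 CPM at 72 h with DCs and MDSCs and 70.2 CPM at 72 h with DCs.

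Across the cells of a library, Odc1 and Srm had a higher mean r than Odc1 had with any other of 1620 genes at 50 CPM or more in each cultured library. Pearson's r of their natural log values was 0.371 at 24 h with DCs and MDSCs, 0.449 at 24 h with DCs, 0.226 at 72 h with DCs and MDSCs and 0.464 at 72 h with DCs. The median r of Odc1 with these genes lay between 0.02 and 0.07. Next to Odc1 stood Nhp2 and Lyar (mean r over the 4 libraries 0.344 and 0.340), and next to Srm stood Nhp2, Lyar and Nolc1 (0.422, 0.409 and 0.388). Oaz1 followed other genes, H2afz, Hmgb2 and Ptma (0.302, 0.289 and 0.274). Its r with Odc1 was between 0.07 and 0.15. Cells of a library share its preparation, depth adjustment and cell cycle make-up, so these values are descriptions.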

How the data were processed

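Sorted cells were profiled on the 10x Genomics platform, per the labels' protocols. The submitters' processing notes name Cell Ranger 2.0.1, Seurat and genome build mm10, with no role or setting. For each cell and gene the authors deposited a natural log value, ln(1 + n), in which n was whole (0 values lay off it by more than 1e-06). Because n summed over a cell varied little (coefficient of variation 4.95%), it is an adjusted count and no count of molecules. The adjustment itself was not given in the sources. The library of each cell came from the deposited annotation.

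From the table covering all time points, n was summed over the cells of each library for every gene, and divided by the library's sum per 1000000 to give the level. A gene was called at 2-fold with 50 CPM or more in either library, and list members at 1.5-fold with 10 CPM or more. Each group being 1 library, no test, count model or doublet caller was applied, and no cells were left out. The planned levels assumed that depth might be recovered, and it could not. The 2-fold rule was first run on simulated libraries that held counting error alone. They had no variation between libraries, so they do not show how often the rule errs in these data. The members, gene lists, naming rule and alternatives were chosen with earlier results of these data known. Named pathway genes were those past 1.5-fold in an MDSC comparison, at most 3 per list and direction. Asl, Slc7a1, Eif5a, Azin2, Amd2 and Myc were named in addition, after their values were seen. For profiles, members at 50 CPM or more in any library (across libraries) or in each of the 4 cultured libraries (across cells) were compared with genes at the same minimum, and the nearest 3 were named. Computations used Python 3.11.15, numpy 2.4.6, pandas 2.3.3, scipy 1.17.1 and matplotlib 3.10.9.

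The alternatives were equal weight per cell, a total without 95 ribosomal protein and mitochondrial genes, levels from the mean natural log value, ratios centred on their median, the tables of 24 h and 72 h alone, minimum levels of 10 and 200 CPM and none, and leaving out cells with 2 or more markers of other cell types. Leaving out cells with shared barcodes or with S100a8, S100a9 or Lyz2 was added after the data were seen.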

Additional observations from a re-analysis of the deposited data

Results flagged for a closer look

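Among the 8 measured members and the 11 genes named for passing 1.5-fold, 7 had log2 ratios with MDSCs of opposite sign at 24 h and 72 h. The 11 were all named for their 72 h ratio. The share of all genes that changed sign was not computed, so the count of 7 cannot be called high or low. The differences were not tested, and each ratio compares 2 libraries. Pathway genes outside that rule also changed sign, such as Slc7a1 (-0.07 at 72 h and 0.53 at 24 h) and Myc (0.23 and -0.05). Among the members, Oaz1 was at -0.24 at 72 h and 0.21 at 24 h, and Azin1 at -0.12 at 72 h and 0.0054 at 24 h. The methyltransferase genes Prmt1, Prmt7 and Prmt3 were at 0.99, 0.74 and 0.59 at 72 h and at -0.04, -0.09 and -0.08 at 24 h. Ddah2 was at -0.78 at 72 h and 0.70 at 24 h, where it stood at 2.15 CPM with DCs and MDSCs and 1.32 CPM with DCs. Mxd3 was at -0.66 at 72 h and 1.08 at 24 h, at 4.35 CPM with DCs and MDSCs and 2.06 CPM with DCs, so both 24 h ratios rest on few cells. The sign for Azin1 at 24 h changed with the scaling.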

How the results depend on the processing

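No paired analysis was possible because each group was 1 library, and for the same reason no replicate could be left out. Of 272 recomputed log2 ratios of members in the 5 comparisons, 269 kept their side of 1.5-fold. The exceptions were Ass1 at 24 h, at 0.63 from mean natural log values, so that 1 member was then higher, and Smox at 24 h, at -0.55 with that setting and -0.54 without cells holding 2 or more markers of other types. Over all settings, the 72 h log2 ratio lay between 1.12 and 1.28 for Ass1, 0.79 and 1.001 for Srm and 0.38 and 0.57 for Odc1. The 72 h ratio minus the 24 h ratio lay between 0.61 and 0.96 for Ass1 and, on both sides of 1.5-fold, between 0.50 and 0.74 for Srm. A total without ribosomal protein and mitochondrial genes moved the median of all genes by -0.11 at 24 h with MDSCs, -0.18 for 24 h against 0 h and 0.15 for 72 h against 24 h with MDSCs; 1 member, Smox, then passed 10 CPM and was lower at 24 h. The ratio of Oaz1 turned negative under that total (-0.17) and under centring (-0.14) for 24 h against 0 h, and turned positive under centring (0.06) for 72 h against 24 h with MDSCs. Amd1 at 24 h with MDSCs turned to -0.08 under that total, -0.13 under centring and -0.02 in the 24 h table alone.

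The counts of all genes past 2-fold depended on the minimum level. With MDSCs at 24 h, 14 were higher and 4 lower. They became 36 and 20 at a minimum of 10 CPM, 4 and 1 at 200 CPM and 871 and 725 with none, 7 higher under centring and 9 in the 24 h table alone, and 2 lower from the mean natural log value. With MDSCs at 72 h, 50 and 138 became 139 and 370, 9 and 40, and 1313 and 1221 at those minimums, and 86 higher without ribosomal and mitochondrial genes. For 24 h with DCs against 0 h, 871 and 383 became 2865 and 744, 157 and 146, and 5666 and 2047, and 596 lower without those genes. For 72 h against 24 h with DCs, 478 and 696 became 1137 and 1528, 142 and 155, and 3281 and 2883. With DCs and MDSCs, 271 and 819 became 761 and 1760, 82 and 185, and 3066 and 2998, and 477 higher without those genes.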
